A study of Mus musculus with 96 samples.

Results

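The genes described here are the neighbours of Htt on mouse chromosome 5, the gene whose CAG repeat was replaced in the animals of the study. Members were the genes of the count table whose start lay between 24761740 and 44761740 of chromosome 5 (GRCm38, GENCODE M21), that is within 10 Mb of the start of Htt, and whose mean over the 96 libraries was at least 0.5 CPM, counts scaled to a common library total. Htt itself, Msantd1, Abhd1, Otof, Gm5067, Gm10471, 5031410I06Rik, 6030443J06Rik, Galnt11, Atraid and symbols beginning with Rpl, Rps, Dnaj or Kcn were left out by name. The rule gave 145 of the 39179 genes in the table. Of the 271 genes in the window, 13 were left out by name and 113 fell below the minimum, which only just took in Poln at 0.532 CPM and only just left out Gm7361 at 0.412 CPM. Several of the genes left out by name were left out with their results in these data known, so a low share of called members is partly fixed by that choice.

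Messenger RNA of the cerebellum was sequenced from C57BL/6 mice at 10 and 6 months of age. Mice were heterozygous for a knock-in Htt allele with a nominal repeat of 20, 50, 92 or 140 CAG, written Q20, Q50, Q92 and Q140, and so each kept 1 unmodified allele. The wild types were mice that shared cages with Q20 animals (WT20) or with Q50 animals (WT50), and each of these 6 groups held 8 libraries at each age, 4 from females and 4 from males. Q92 and Q140 mice came from cages of their own, and wild types of those cages were not analysed here. The repeat length of a line, its cages and the DNA inherited along with its allele therefore cannot be told apart between lines. The labels do not state that each library came from a separate animal, so the p-values measure the spread between libraries, part of which may be technical.

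Huntingtin is a large scaffold protein made throughout the body, and in people a long CAG repeat in its gene causes Huntington's disease, which first strikes the striatum rather than the cerebellum. Genes that sit close to an engineered allele on the chromosome are inherited together with it. The neighbourhood of Htt holds genes of no shared function, among them kinases and receptors of neurons, a pair of developmental genes (En2 and Cnpy1) and genes of the primary cilium.

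Library totals ran from 29957797 to 39477325 estimated counts, with a median of 34251076. Gabra6, the receptor subunit that marks cerebellar granule neurons, lay between 331.5 and 778.9 CPM over all libraries, and Pcp2, which marks Purkinje cells, between 131.8 and 443.8 CPM, so the tissue label held. On the first principal component of all tested genes, 11 libraries at 6 months and 1 at 10 months (Q92 female 2) lay over 3 scaled median absolute deviations from the median, and counts without them are given where they differ. Of the 145 members, 133 were protein coding, 94 lay at lower and 51 at higher coordinates than Htt, and 76 were on the plus strand. The mean level per length ran from 0.177 to 543 FPKM (fragments relative to gene length and sequencing depth), with a median of 8.74. The highest were Ywhah, an adaptor that binds phosphorylated proteins (543 FPKM), Nsg1, a protein of neuronal endosomes (313 FPKM), Cnpy1 (170 FPKM), Mrfap1 (140 FPKM) and Ppp2r2c, a regulatory subunit of a protein phosphatase (109 FPKM). In these whole-tissue libraries, fewer cells of a type and less RNA per cell cannot be told apart. Exons of 49 members overlapped a gene on the opposite strand, and counting by strand is not stated, so reads of such partners cannot be told apart.

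Promoter sequences of 3 members are shown because the results turn on these genes. Slc5a1 and Ppp1cb were the members called in knock-in mice against wild types, and Prom1 was the member called for CAG length at both ages. Each sequence is the RefSeq (GRCm38.p6) stretch from 250 bases before to 50 bases after the gene's start, 5′ to 3′ on the gene's own strand. Capitals mark the E-box CACGTG in Slc5a1 and the GC box (GGGCGG, or CCGCCC on the other strand) in Ppp1cb and Prom1.
Slc5a1 promoter, chr5:33103969-33104268, plus strand: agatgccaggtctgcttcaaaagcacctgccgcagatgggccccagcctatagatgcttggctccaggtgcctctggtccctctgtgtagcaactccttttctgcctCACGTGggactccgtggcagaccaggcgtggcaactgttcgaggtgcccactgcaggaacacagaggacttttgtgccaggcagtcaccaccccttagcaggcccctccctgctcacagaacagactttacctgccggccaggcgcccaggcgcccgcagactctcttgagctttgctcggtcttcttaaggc
Ppp1cb promoter, chr5:32458720-32459019, plus strand: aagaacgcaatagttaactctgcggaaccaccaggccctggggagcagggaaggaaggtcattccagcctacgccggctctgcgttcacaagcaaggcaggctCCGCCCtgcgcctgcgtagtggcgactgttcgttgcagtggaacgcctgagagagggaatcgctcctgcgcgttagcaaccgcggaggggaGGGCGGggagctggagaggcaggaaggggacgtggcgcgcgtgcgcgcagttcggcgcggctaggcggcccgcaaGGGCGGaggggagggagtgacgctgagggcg
Prom1 promoter, chr5:44101687-44101986, minus strand: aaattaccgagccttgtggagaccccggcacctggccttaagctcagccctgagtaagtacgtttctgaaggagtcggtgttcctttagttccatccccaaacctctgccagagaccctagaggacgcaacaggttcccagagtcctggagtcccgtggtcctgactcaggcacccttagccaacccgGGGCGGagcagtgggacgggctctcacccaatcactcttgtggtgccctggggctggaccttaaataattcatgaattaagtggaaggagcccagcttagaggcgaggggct
The Ppp1cb stretch held 31 CG pairs and 3 GC boxes at 67.3% G and C. Those of Slc5a1 and Prom1 held 10 CG pairs each, at 60.3% and 57.0%, against a median of 7 CG pairs and 52.7% over all promoters. RefSeq gave 149 promoters for 123 of the 145 members. A GC box, searched on both strands, was in 73.2% of the members' promoters and 35.7% of all 32851. An E-box was in 10.7% of the members' promoters and 7.15% of all, and TATAAA, or its reading TTTATA on the other strand, in 2.68% of the members' promoters and 13.6% of all. Members had to reach a minimum mean level in these libraries, and no such minimum was set for the 32851 promoters. The shares therefore differ in expression as well as in place, and cannot be read as a trait of the neighbourhood of Htt. A comparison with promoters of other genes that reach the same minimum was not made. A match describes the letters and is no evidence that a factor binds there.

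The first question was whether the neighbours of Htt differed between mice with a knock-in allele of any length and wild types. This comparison of the 4 knock-in lines (32 libraries) with both wild type groups (16 libraries) was added after the values of the planned comparisons had been seen. At 10 months 2 of 145 members were called by edgeR's quasi-likelihood test at an adjusted p under 0.05, where the share over all genes tested was 0.0529%. Both were lower in knock-in mice and both lay on the lower-coordinate side of Htt, as did 94 of the 145 members. They were Slc5a1, which encodes the sodium-glucose cotransporter SGLT1, and Ppp1cb, which encodes a catalytic subunit of protein phosphatase 1. Without Q92 female 2, 4 members (2.76%) were called at 10 months, where 0.0761% of all genes were. At 6 months no member was called, where the share of all genes was 0.0175%, and DESeq2 and limma also called 0. At an unadjusted p under 0.05 there were 22 members (15.2%, against 4.83% of all genes) at 10 months and 16 members (11.03%, against 3.65%) at 6 months. The sizes were small: the median absolute log2 fold change was 0.03 over the members at both ages and 0.03 over all genes, and 125 of 145 members at 10 months and 124 at 6 months lay within 0.1 of 0.

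Slc5a1 (ENSMUSG00000011034, chromosome 5, 33104219 to 33162870, plus strand, starting 1.66 Mb below Htt) had a mean level of 2.75 FPKM. At 10 months its lowest, median and highest values were 6.82, 10.2 and 15.6 CPM in knock-in libraries, and 9.52, 13.8 and 18.8 CPM in wild types. At 6 months they were 7.71, 10.8 and 12.4 CPM in knock-in libraries, and 8.56, 12.2 and 15.5 CPM in wild types. Most knock-in libraries sat below the wild type average at both ages while the ranges overlapped. The log2 fold change was -0.37 ± 0.06 (SE) at 10 months (edgeR adjusted p = 0.000487), with 30 of 32 knock-in libraries below the wild type mean. It was -0.20 ± 0.05 at 6 months, again with 30 of 32 below, and this did not pass (adjusted p = 0.240). None of its annotated 50-base words was shared with another gene.

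By line, Slc5a1 at 10 months had 8.77, 10.1 and 10.9 CPM (lowest, median, highest) in Q20 and 11.6, 14.4 and 15.1 CPM in WT20. It had 6.82, 9.85 and 11.1 CPM in Q50, and 9.52, 13.2 and 18.8 CPM in WT50. Every Q20 library lay below every WT20 library, while Q50 and WT50 overlapped. Against all wild types, values were 9.97, 11.4 and 15.6 CPM in Q92, and 8.66, 10.0 and 12.04 CPM in Q140. The log2 fold changes were -0.49 ± 0.10 for Q20 against WT20 (adjusted p = 0.0624), -0.45 ± 0.10 for Q50 against WT50 (adjusted p = 0.0788), -0.17 ± 0.09 for Q92 against wild types (adjusted p = 0.423) and -0.38 ± 0.09 for Q140 against wild types (adjusted p = 0.0297). The last was the only one of these edgeR called (DESeq2 also called Q50 against WT50, adjusted p = 0.0148) and the only member called there, where 0.452% of all genes were called. It was lost with 5 of the 48 single libraries left out, namely Q140 female 2 (adjusted p = 0.0892), female 3 (0.0773) and female 4 (0.0636) and Q140 male 1 (0.0841) and male 4 (0.0698), and with library number as a covariate (0.303), where the fold was -0.36. Within the knock-in lines the slope was 0.13 per 100 CAG at both ages and was not called, so a dependence on repeat length was not detected for Slc5a1.

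**Figure D1:**
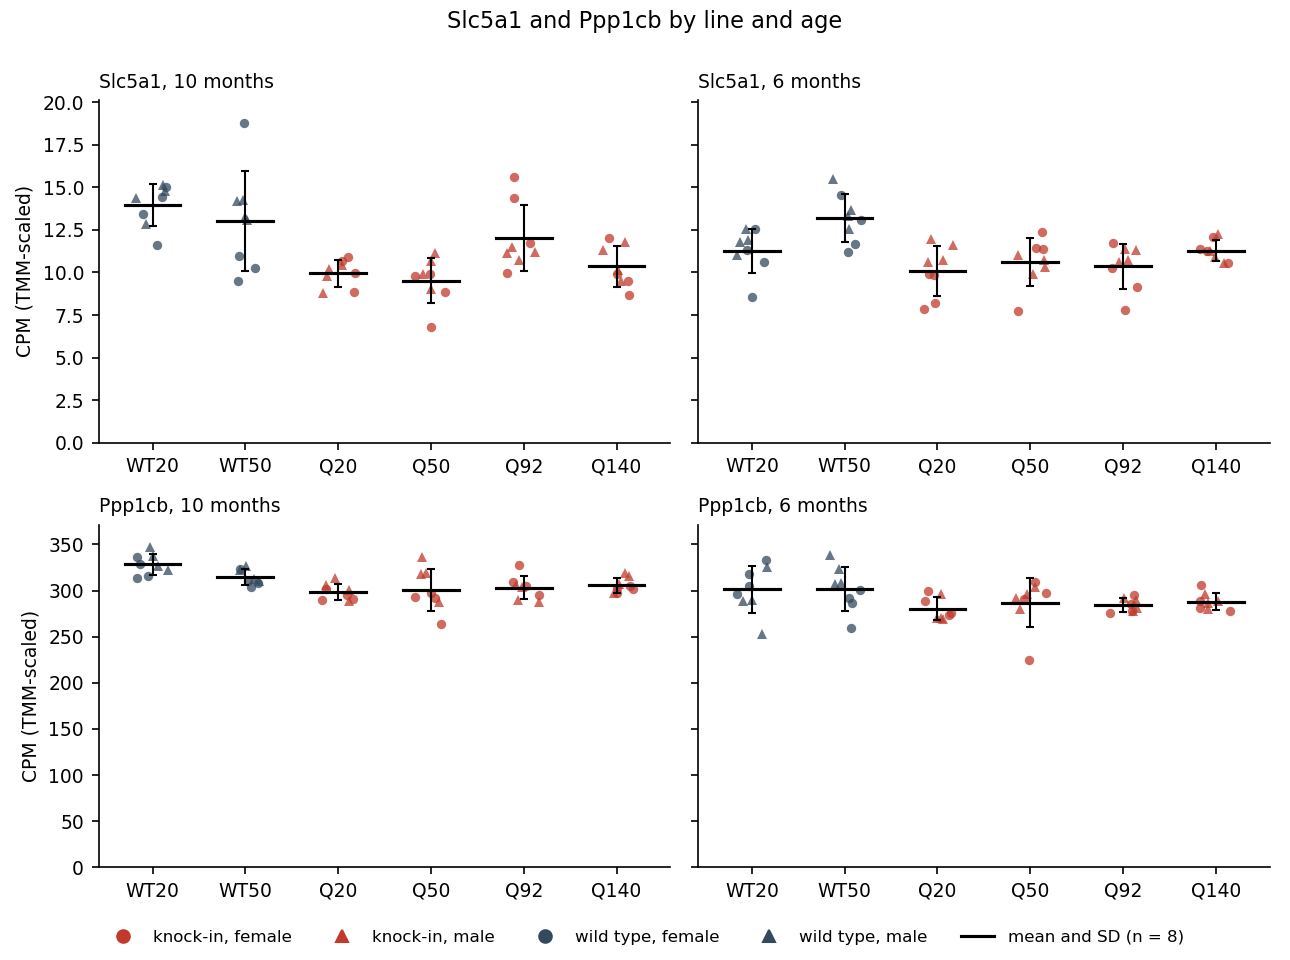
Slc5a1 (top) and Ppp1cb (bottom) in CPM per library at 10 months (left) and 6 months (right), by group on the horizontal axis, with circles for females, triangles for males, and the mean and SD of 8 libraries in black. Slc5a1 in the 8 Q20 libraries at 10 months lies under all 8 WT20 libraries, and for Ppp1cb the groups overlap.

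Slc5a1 moved with the level of Purkinje cell genes from library to library. The Purkinje score, the mean log2 CPM of 6 marker genes (Pcp2, Calb1, Car8, Itpr1, Ppp1r17, Slc1a6), had a Spearman correlation with Slc5a1 of 0.749 at 10 months and 0.451 at 6 months over 48 libraries. These points share library depth and normalization, and the numbers are a description. The score itself was 9.22 ± 0.19 in knock-in and 9.28 ± 0.18 in wild type libraries at 10 months, and 9.23 ± 0.13 in knock-in and 9.16 ± 0.14 in wild type libraries at 6 months (SD). Summed over the 6 markers the range was 4276 to 10500 CPM in knock-in and 5863 to 10320 CPM in wild type libraries at 10 months, and 4074 to 8556 CPM in knock-in and 4907 to 7853 CPM in wild type libraries at 6 months. No marker had a mean of 0 over all libraries.

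With the Purkinje score as a covariate, added after the values were seen, the fold change of Slc5a1 between knock-in and wild type was -0.30 ± 0.03 at 10 months (adjusted p = 3.41e-09) and -0.27 ± 0.03 at 6 months (adjusted p = 1.39e-06). The difference at matched score was thus of like size at both ages. By line at 10 months it was -0.37 in Q20 against WT20 (adjusted p = 1.78e-05), -0.25 in Q50 against WT50 (0.0542), -0.29 in Q92 against wild types (0.000122) and -0.30 in Q140 against wild types (1.98e-05). At 6 months it was -0.21 for Q20 (adjusted p = 0.204), -0.32 for Q50 (0.00221), -0.32 for Q92 (0.00016) and -0.24 for Q140 (0.0183), against the same wild types. Lines differed less from each other with the score than without it at 10 months, and Q92 then lay with the rest. The slope per 100 CAG of Slc5a1 was then 0.03 at 10 months and 0.00 at 6 months. With an oligodendrocyte score in its place the knock-in difference was -0.32 at 10 months (2.58e-06) and -0.24 at 6 months (0.00497).

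**Figure D2:**
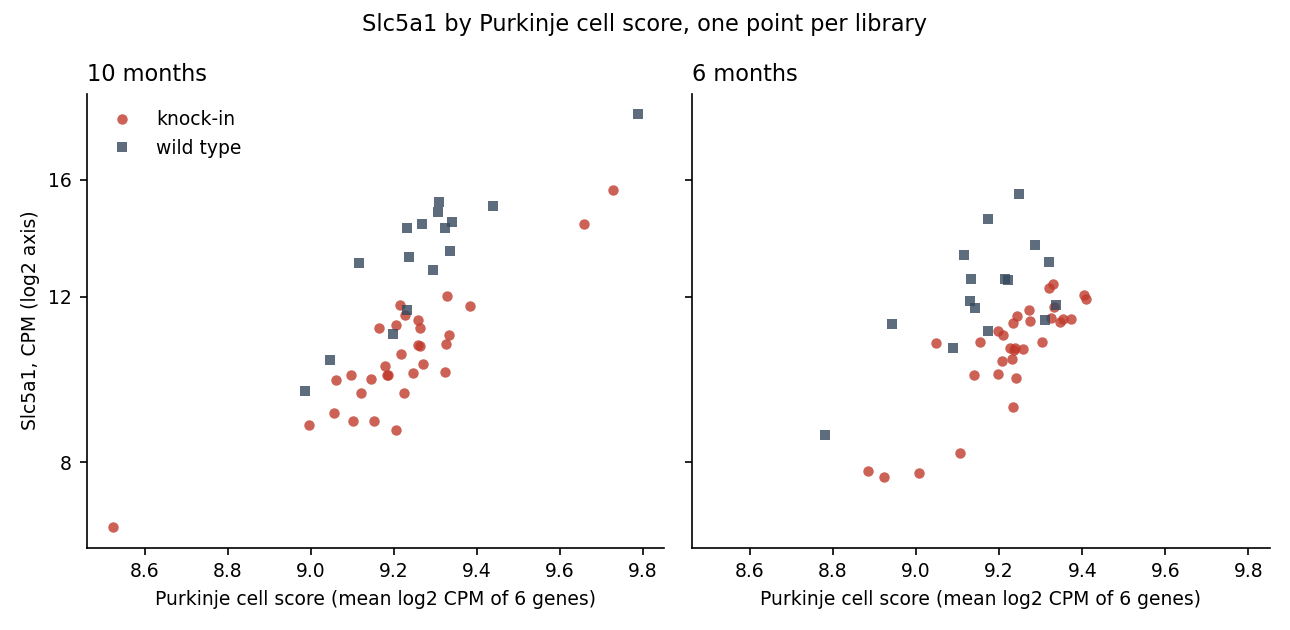
Slc5a1 in CPM (log2 axis) against the Purkinje cell score (mean log2 CPM of 6 genes), 1 point per library, at 10 months (left) and 6 months (right). Red circles (knock-in) lie mostly below dark squares (wild type) of the same score, which is the difference of -0.30 at 10 months and -0.27 at 6 months on the log2 scale.

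Ppp1cb (ENSMUSG00000014956, chromosome 5, 32458843 to 32517433, plus strand) lay 0.645 Mb from Slc5a1 and was far more abundant, with a mean of 55.2 FPKM. At 10 months its lowest, median and highest values were 263.5, 301.6 and 336.1 CPM in knock-in libraries, and 303.7, 322.8 and 347.2 CPM in wild types. At 6 months they were 224.8, 287.3 and 309.1 CPM in knock-in libraries, and 252.9, 302.6 and 338.2 CPM in wild types. Knock-in libraries sat lower as a group at either age, and the ranges overlapped. The log2 fold change was -0.09 ± 0.02 at 10 months (adjusted p = 0.0277), with 30 of 32 knock-in libraries below the wild type mean, and -0.08 ± 0.03 at 6 months (adjusted p = 1). The largest difference of a line at 10 months was -0.14 ± 0.03 in Q20 against WT20 (adjusted p = 0.110), which DESeq2 (adjusted p = 0.00209) and limma (0.00345) called. DESeq2 left most members without an adjusted p in that comparison, so its adjusted p is not on a par with those of the other tools. Gm43312 overlaps Ppp1cb on the same strand and holds 16.4% of its 50-base words, so part of its count is uncertain. The call was lost with the library number as a covariate (the number after L in the library names, entered as a factor; adjusted p = 0.653), with the Purkinje score described for Slc5a1 (0.0602), with no low-count filter (0.0697) and without any 1 of 7 wild type libraries (adjusted p from 0.0628 to 0.0841), namely WT20 female 3, female 4, male 3 and male 4 and WT50 female 2, male 1 and male 2. The fold stayed at -0.08 with library number and at -0.09 with the Purkinje score or no filter, and without single libraries it ran from -0.10 to -0.09.

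The libraries of 10 and of 6 months are separate, so a direction seen at both ages rests on different libraries. Beyond Slc5a1 and Ppp1cb, 3 members had an unadjusted p under 0.05 in the same direction at both ages, and all 3 were higher in knock-in mice. That makes 5 of 145 members (3.45%) against 0.16% of all genes tested at both ages (27 of 16917), with 0 members in opposite directions. This pattern was noticed after the values were seen. Dpysl5, of the collapsin response mediator family that acts in axon guidance, was 0.12 ± 0.04 higher at 10 months (37.4 ± 3.18 CPM in knock-in and 34.4 ± 1.62 CPM in wild type, SD, n = 32 and 16) and 0.13 ± 0.04 higher at 6 months. Cad, the enzyme that starts pyrimidine synthesis, was 0.09 ± 0.04 higher at both ages. Ift172, a part of the intraflagellar transport machinery of cilia, was 0.09 ± 0.03 higher at both ages. None of these 3 passed adjustment at either age (smallest adjusted p 0.595, for Dpysl5 at 10 months). Between 27 and 29 of the 32 knock-in libraries lay above the wild type mean for each of them at each age. The genes were picked for a low p in the same direction, so this count restates that choice and adds no support. The starts of the 5 genes spanned 2.39 Mb, all on the lower-coordinate side of Htt, with Dpysl5 4.05 Mb, Cad 3.71 Mb, Ift172 3.51 Mb, Ppp1cb 2.30 Mb and Slc5a1 1.66 Mb below it. That side holds 94 of the 145 members.

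**Figure D3:**
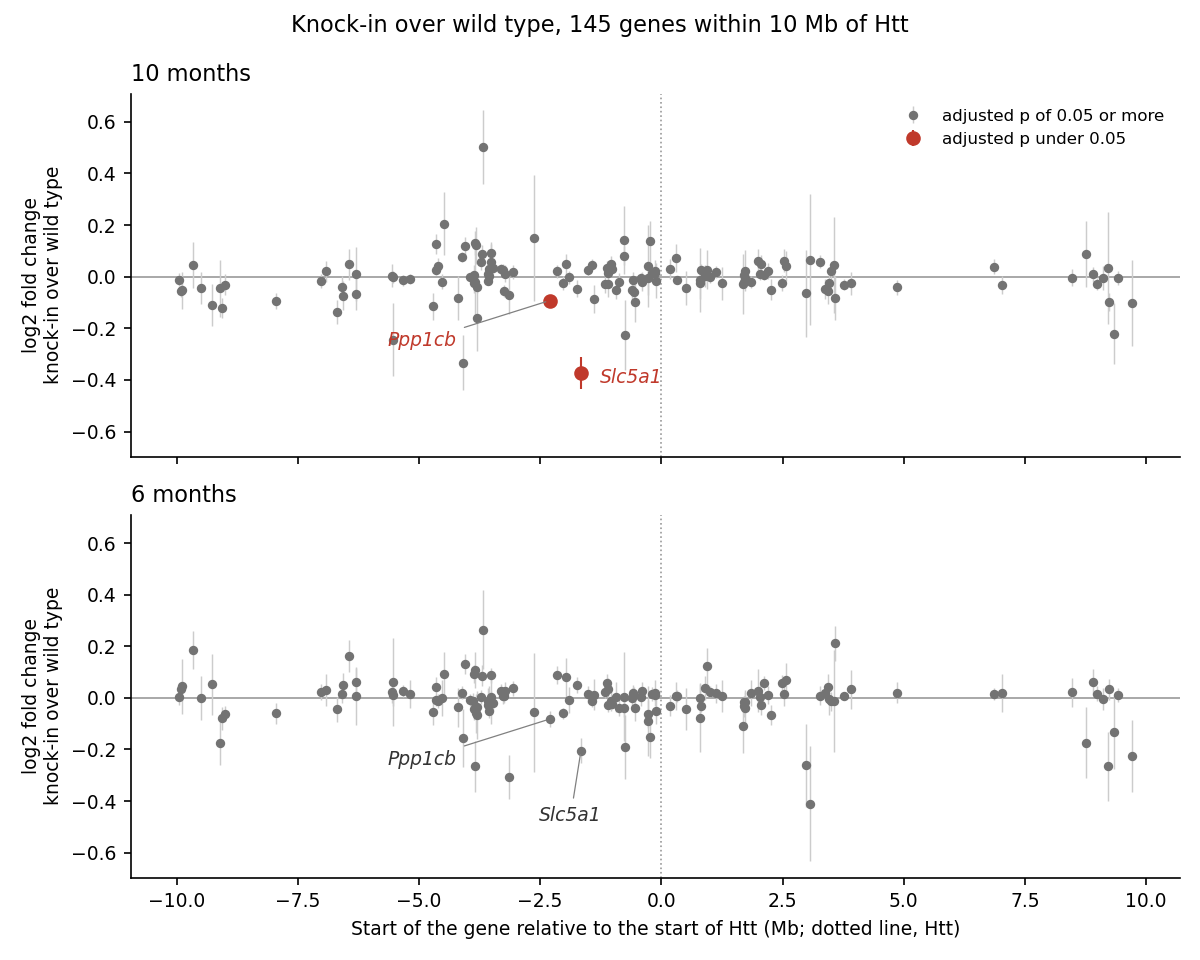
Log2 fold change of knock-in over wild type for each of the 145 genes (vertical axis, bars are SE) by the distance of its start from that of Htt in Mb (horizontal axis), at 10 months (top) and 6 months (bottom). Both genes called at 10 months, in red, lie between 1.66 and 2.30 Mb below Htt, and most genes lie within 0.1 of 0 at either age.

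The size of the differences did not increase toward Htt. The 30 members less than 1 Mb from Htt had a median absolute log2 fold change of 0.03 in knock-in against wild type at 10 months, with 0 called. It was 0.03 in the 31 members at 1 to 2.5 Mb, where both called members lay, 0.05 in the 49 members at 2.5 to 5 Mb and 0.04 in the 35 members at 5 to 10 Mb. Over all genes, edgeR called 9 at 10 months and 3 at 6 months, and all of them lay in the window, which held 169 of the tested genes (0.993%). Of these called genes 7 at 10 months and 3 at 6 months were genes left out by name, which were left out with such results known.

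The closest members were not called in any line against its wild types. Msantd1, which overlaps the end of Htt, was left out by name and is not covered. Grk4, a kinase of G protein-coupled receptors, ends 6435 bases below Htt, and Rgs12, a regulator of G protein signalling, starts 36911 bases above it. Grk4 at 10 months averaged 3.46 ± 0.27 CPM in Q20 and 3.38 ± 0.30 CPM in WT20, and 3.73 ± 0.51 CPM in Q140 (SD, n = 8 each). Rgs12 at 10 months averaged 15.5 ± 0.60 CPM in Q20 and 14.9 ± 1.34 CPM in WT20, and 15.3 ± 1.26 CPM in Q140. The other 14 of the 8 nearest on either side were Gm26931, Fam193a, Tnip2 (a regulator of NF-kB signalling), Sh3bp2 (a signalling adaptor), Add1 (adducin, which caps actin), Mfsd10, Nop14 (ribosome assembly), Dok7 (an activator of the muscle receptor kinase MuSK), Lrpap1 (a chaperone of lipoprotein receptors), Adra2c (an adrenergic receptor), the pseudogene Plk-ps1, Trmt44 (a tRNA methyltransferase), Acox3 (a peroxisomal oxidase) and Htra3 (a serine protease). Over these 16 genes, 4 lines and 2 ages, the 128 log2 fold changes ran from -0.28 to 0.23, and 108 of them lay within 0.1 of 0. Sh3bp2 was 0.23 in both Q50 against WT50 and Q140 against wild types at 10 months, and -0.25 in Q50 against WT50 at 6 months, so its sign was not stable between ages.

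**Figure D4:**
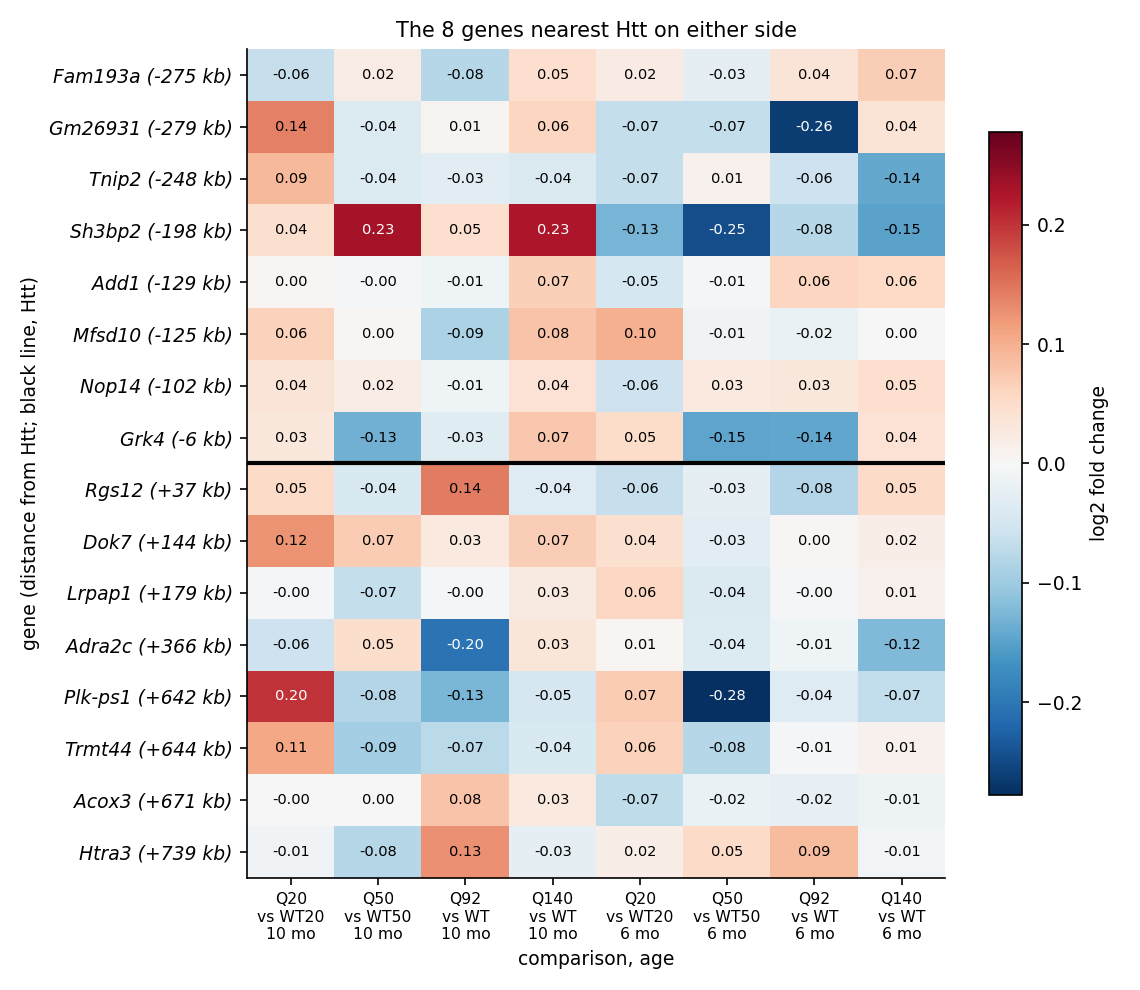
Log2 fold change (colour and printed value) of the 8 members nearest Htt on either side, in order along the chromosome from top to bottom with Htt at the black line, in each knock-in line over its wild types at 10 months (left 4 columns) and 6 months (right 4 columns). Values lie between -0.28 and 0.23 and no gene keeps a large value across lines.

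The planned comparisons of a single line with wild types called few members. Q20 against WT20 had 0 members called at 10 months (share of all genes 0.0117%), with 1 called by DESeq2, which left most members without an adjusted p there, and 1 by limma. At 6 months it had 0 (share of all genes 0.0117%), with 0 by both other tools. At an unadjusted p under 0.05 there were 10 members at 10 months (6.90%, against 8.82% of all genes) and 13 at 6 months (8.97%, against 6.43%). Q50 against WT50 had 0 at 10 months (share 0.0529%; 1 by DESeq2, 0 by limma) and 0 at 6 months (share 0.0117%; 0 by both), with 15 members (10.3%, against 4.8% of all genes) and 4 members (2.76%, against 1.03%) at an unadjusted p under 0.05. Q92 against all wild types had 0 at 10 months (share 0.0529%) and 0 at 6 months (share 0.035%), with 0 by both other tools. Unadjusted there were 23 members (15.9%, against 12.1% of all genes) at 10 months and 22 (15.2%, against 5.62%) at 6 months. Q140 against all wild types had 1, Slc5a1, at 10 months and 2 at 6 months, where the share of all genes was 0.234%. Unadjusted there were 14 members (9.66%, against 6.26%) at 10 months and 17 (11.7%, against 9.65%) at 6 months. The members' unadjusted share was above that of all genes in each of these comparisons except Q20 against WT20 at 10 months. It was also above in WT50 against WT20, at 15.9% against 10.8% (10 months) and 9.66% against 7.98% (6 months). In females against males it was 28.3% against 25.6% (10 months) and 11.03% against 9.91% (6 months). The shares for sex thus lay close to those of all genes. In the pooled knock-in lines against wild types the members' share was 15.2% against 4.83% (10 months) and 11.03% against 3.65% (6 months). Why the shares differ between comparisons was not tested.

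The 2 members called in Q140 at 6 months were Slc2a9, a urate and sugar transporter, and Rbks, the kinase that phosphorylates ribose. Slc2a9 (chromosome 5, 38349273 to 38503143, minus strand) averaged 5.33 ± 0.999 CPM in Q140 and 4.01 ± 0.63 CPM in wild types (SD, n = 8 and 16), a log2 fold change of 0.41 ± 0.10 (adjusted p = 0.0445). Rbks (31624439 to 31697627, minus strand) averaged 0.996 ± 0.184 CPM in Q140 and 1.46 ± 0.36 CPM in wild types, a log2 fold change of -0.54 ± 0.13 (adjusted p = 0.0470). All 8 Q140 libraries lay on one side of the wild type mean for each gene, and the ranges overlapped. The call of Slc2a9 was lost in 14 and that of Rbks in 32 of 48 fits that each left out 1 library (largest adjusted p 0.157 and 0.146). The mean levels of 2 marker lists were lower in these Q140 libraries. The choroid plexus score at 6 months averaged 0.68 ± 1.0 in Q140 and 3.06 ± 1.73 in wild type libraries, and the oligodendrocyte score 7.27 ± 0.17 in Q140 and 7.55 ± 0.19 in wild types (mean log2 CPM of 10 markers each, SD, n = 8 and 16). The summed choroid plexus markers ran from 30.3 to 415.7 CPM in Q140 and 34.4 to 2453 CPM in wild types, and the summed oligodendrocyte markers from 3355 to 5440 CPM in Q140 and 3862 to 7045 CPM in wild types. No marker of either list had a mean of 0 over all libraries. Over the 48 libraries of 6 months, which share depth and normalization, the Spearman correlation with the oligodendrocyte score was 0.52 for Rbks and -0.39 for Slc2a9. Neither was called with the choroid plexus score as a covariate, at 0.32 for Slc2a9 (adjusted p = 0.7198) and -0.49 for Rbks (0.458), or with the oligodendrocyte score, at 0.34 for Slc2a9 (0.192) and -0.39 for Rbks (0.287). At 10 months the values were 0.17 ± 0.12 for Slc2a9 (adjusted p = 0.983) and -0.24 ± 0.11 for Rbks (adjusted p = 0.709), in the same directions.

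Q140 was then set against Q20, 2 knock-in lines that differ in repeat length and in cage. At 10 months 3 of 145 members were called, all higher in Q140, where 1.99% of all genes were called. At 6 months 0 were called, where 0.164% of all genes were called, with 1 called by DESeq2 and 0 by limma. At an unadjusted p under 0.05 the members' share was 11.7% (17 members) against 13.8% of all genes at 10 months, and 15.2% (22 members) against 23.2% at 6 months. Afap1, which binds and cross-links actin filaments, was 0.17 ± 0.04 higher at 10 months (adjusted p = 0.00781). Cc2d2a, a protein of the ciliary transition zone, was 0.19 ± 0.05 higher (adjusted p = 0.0215). Prom1, which encodes prominin, a membrane protein of cell protrusions and photoreceptor discs, was 0.22 ± 0.06 higher (adjusted p = 0.0273). Prom1 overlaps Gm16401 on the opposite strand, and reads of the 2 cannot be told apart.

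Afap1 (35893319 to 36003923, plus strand) had 29.5, 32.1 and 33.4 CPM (lowest, median, highest) in Q140, and 25.8, 28.3 and 30.6 CPM in Q20 at 10 months. Cc2d2a (43662346 to 43740972, plus strand) had 48.3, 50.0 and 53.9 CPM in Q140, and 39.9, 43.9 and 48.5 CPM in Q20. Prom1 (43993620 to 44102032, minus strand) had 34.2, 38.1 and 41.04 CPM in Q140, and 29.1, 33.4 and 37.1 CPM in Q20. All 8 Q140 libraries lay above the Q20 mean for each gene, and the groups met only at their edges for Cc2d2a. At 6 months the log2 fold changes of Q140 over Q20 were 0.14 for Afap1 (adjusted p = 0.191), 0.20 for Cc2d2a (0.176) and 0.24 for Prom1 (0.0991), close in size to those at 10 months. Far out on the component of all genes at 6 months were Q20 females 2, 3 and 4 and male 4, and Q140 female 4. Without Q92 female 2, 8 members (5.52%) were called at 10 months, where 4.43% of all genes were. Afap1 was called in each of the 48 fits that left out 1 library. Cc2d2a was lost without Q20 male 3 (adjusted p = 0.0647), and Prom1 was lost without Q140 female 2 (0.0537), Q20 male 2 (0.0569) or Q20 male 3 (0.0705). With library number as a covariate none was called, at 0.14 for Afap1 (adjusted p = 0.0787), 0.15 for Cc2d2a (0.277) and 0.16 for Prom1 (0.418), so the folds stayed in direction and were somewhat smaller.

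Against wild types these genes looked different. In Q140 over all wild types at 10 months Afap1 was 0.11 (adjusted p = 0.129), Cc2d2a 0.10 (0.649) and Prom1 0.02 (1). Prom1 at 10 months had medians of 33.4 CPM in both Q20 and Q50, 37.6 CPM in Q92 and 38.1 CPM in Q140, with 36.9 CPM in WT20 and 38.1 CPM in WT50. Thus Prom1 in Q92 and Q140 had medians at the level of the wild types, and the medians of Q20 and Q50 lay lower. Cc2d2a had a median of 49.3 CPM in Q50 and 49.3 CPM in WT50, above the 43.9 CPM in Q20 and 45.2 CPM in WT20, so both genotypes of the Q50 cages were near the Q140 level of 50.0 CPM. Between the wild types of those cages the log2 fold change of WT50 over WT20 at 10 months was 0.12 for Cc2d2a (adjusted p = 0.357) and 0.09 for Afap1 (0.390). No member was called between WT50 and WT20 by edgeR, DESeq2 or limma at either age. The share of all genes called there was 0.2% at 10 months and 0.0935% at 6 months, with 23 members (15.9%, against 10.8% of all genes) and 14 members (9.66%, against 7.98%) at an unadjusted p under 0.05.

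**Figure D5:**
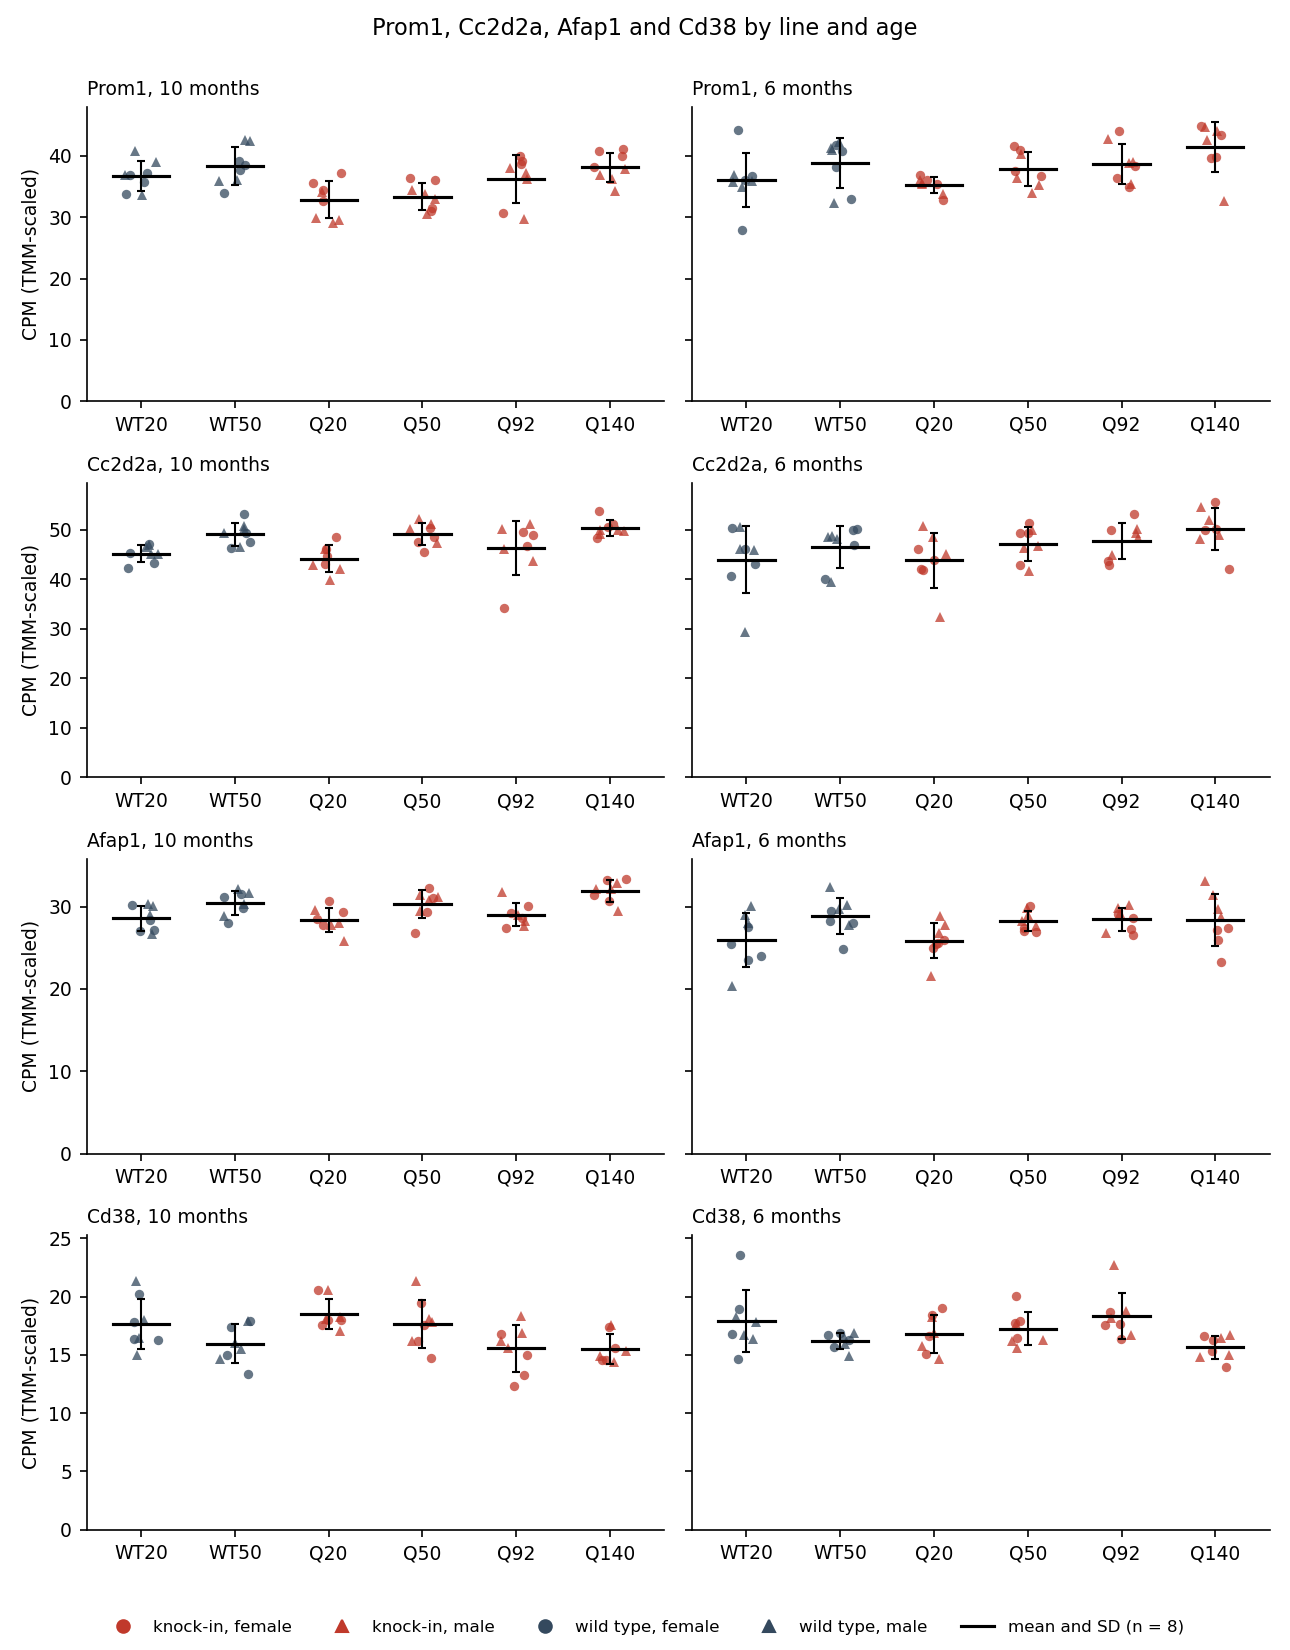
Prom1, Cc2d2a, Afap1 and Cd38 (top to bottom) in CPM per library at 10 months (left) and 6 months (right), by group, with circles for females, triangles for males, and the mean and SD of 8 libraries in black. Prom1 at 10 months has medians of 33.4 CPM in Q20 and 38.1 CPM in Q140 while WT50 is also at 38.1 CPM. The median of Cd38 is lowest in Q140, whose values at 10 months lie within the range of WT50.

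Q92 against Q20 called 0 members at 10 months (share of all genes 0.2%; 1 by DESeq2, 0 by limma) and 0 at 6 months (share 0.0117%; 0 by both). Unadjusted there were 33 members (22.8%, against 16.1% of all genes) at 10 months and 28 (19.3%, against 24.7%) at 6 months. The member that DESeq2 called was Fgfbp1, a secreted carrier of fibroblast growth factors, at 1.23 ± 0.35 in edgeR (adjusted p = 0.0892). In Q92 its values at 10 months were 0.626, 0.762 and 5.44 CPM (lowest, median, highest), and in Q20 they were 0.160, 0.624 and 1.05 CPM. One Q92 library stood far above the others of Fgfbp1.

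A slope of expression on CAG length was fitted over the 32 knock-in libraries of an age. At 10 months 2 members were called, where 1.16% of all genes were, and at 6 months 1 was called, where 0.406% were. Prom1 was called at both ages, at 0.19 ± 0.04 per 100 CAG at 10 months (adjusted p = 0.0107) and 0.19 ± 0.04 at 6 months (adjusted p = 0.0469). At 6 months the median was 35.5 CPM for Q20, 37.1 CPM for Q50, 38.6 CPM for Q92 and 43.0 CPM for Q140, an order that followed repeat length, with overlap of neighbours. Wild types of that age ran from 27.97 to 44.13 CPM in WT20, a range that takes in all of these medians, and from 32.38 to 42.3 CPM in WT50. The call of Prom1 at 10 months was kept in all 32 fits without 1 library, and that at 6 months in 11 of 32. The 6-month call was kept with RLE scaling and DESeq2 and lost in the other 9 alternatives: no low-count filter, limma, the replicate block, library number, each of the 3 marker scores and leaving out libraries remote from the rest on a principal component of 500 genes or of all genes. Its slope over these ran from 0.14 with the choroid plexus score (adjusted p = 0.453) to 0.19. At 10 months the call was also lost with library number, at 0.17 (adjusted p = 0.138). Counts of called members moved with single libraries: without Q140 female 4 at 6 months 29 members (20.0%) were called, where 24.1% of all genes were, and without Q92 female 2 at 10 months 6 members (4.14%) were, where 3.64% of all genes were.

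Cd38, an enzyme that breaks down NAD, fell by 0.23 ± 0.06 per 100 CAG at 10 months (adjusted p = 0.0329). Its values at 10 months ran from 17.1 to 20.6 CPM for Q20 (median 18.1), 14.8 to 21.4 CPM for Q50 (median 17.7), 12.3 to 18.3 CPM for Q92 (median 15.9) and 14.4 to 17.5 CPM for Q140 (median 15.1). At 6 months the medians were 16.7, 17.1, 17.9 and 15.8 CPM in the same order, and the slope of Cd38, -0.06, was not called (adjusted p = 0.510). Wild types are not part of the slope. At 10 months they ran from 15.03 to 21.35 CPM in WT20 and from 13.32 to 17.92 CPM in WT50. The Q140 range lay within that of WT50, so the slope does not place Q140 below wild types. The 10-month call was lost in 10 of 32 fits without 1 library (adjusted p from 0.0511 to 0.0747). Cd38 moved with oligodendrocyte markers, at a Spearman correlation with their score of 0.522 at 10 months and 0.477 at 6 months over 48 libraries that share depth and normalization. That score averaged 7.55 in the Q20, 7.51 in the Q50, 7.26 in the Q92 and 7.18 in the Q140 libraries of 10 months (mean log2 CPM of 10 markers, none with a mean of 0 over all libraries). With it as a covariate the slope of Cd38 was -0.10 (adjusted p = 0.747). That of Prom1 was 0.18, close to its 0.19 without the score, and was not called (adjusted p = 0.179).

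Cc2d2a, Fbxl5, Cd38, Fgfbp1 and Prom1 lie within 0.44 Mb, and their lower coordinates are 8.90 to 9.23 Mb above that of Htt. They did not move as a block. In Q140 over Q20 at 10 months Cc2d2a (0.19) and Prom1 (0.22) were called, while Fbxl5, an iron-sensing ubiquitin ligase subunit, was at 0.07 (adjusted p = 0.429), Fgfbp1 at 0.38 (0.704) and Cd38 at -0.25 (0.0679).

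Members of the functional lists were next counted in Q140 against Q20 at 10 months, where 1.99% of all genes were called. Each list holds few members, so 1 call in a list says nothing of the list. Of 12 members of the cytoskeleton list 1 was called (Afap1), of 6 cilia members 1 (Cc2d2a) and of 5 members of the immune and NAD glycohydrolase list 1 (Prom1, which is not an immune gene). No member was called among 18 neuronal signalling genes, where the smallest p belonged to Crmp1, another collapsin response mediator, at 0.15 ± 0.05 (adjusted p = 0.135). None was called among 18 developmental regulators (smallest p Fndc4, adjusted p = 0.267), 14 chromatin genes (Bod1l, 0.444) or 12 genes of DNA repair and cell division (Uvssa, 0.218). The same held for 13 metabolic genes (Slc2a9, 0.0703), 19 genes of membrane traffic (Tapt1, 0.187), 8 of RNA processing (Nom1, 0.4502) and 6 ubiquitin ligases (Fbxl5, 0.429). The list of amino acid sensing and insulin signalling, with 7 members, also had none called. Its smallest p belonged to Grk4 (0.719), which is a kinase of G protein-coupled receptors. The list medians lay between -0.03 and 0.04 on the log2 scale.

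More members were called for sex than in any comparison of genotypes at 10 months, and the same held over all genes. Of these 1000 were called for sex, and at most 339 in a comparison of genotypes (Q140 against Q20). The test for sex set 24 libraries against 24, more than the 8 of a single line. Of 145 members 12 (8.28%) were called in females against males, 9 higher and 3 lower, where 5.87% of all genes were called. At 6 months 0 were called by edgeR, DESeq2 or limma, where 0.876% of all genes were called and 16 members (11.03%, against 9.91% of all genes) had an unadjusted p under 0.05. At 10 months 41 members (28.3%, against 25.6%) had one. Evc, a ciliary protein of hedgehog signalling, averaged 8.67 ± 1.25 CPM in females and 7.58 ± 0.67 CPM in males at 10 months (SD, n = 24 each), 0.19 ± 0.04 higher (adjusted p = 0.00634), with 23 of 24 female libraries above the male mean. Babam2, a subunit of a deubiquitinating complex that acts with BRCA1, averaged 23.3 ± 1.76 CPM in females and 21.5 ± 1.29 CPM in males, 0.12 ± 0.03 higher (0.00664). Wfs1, the endoplasmic reticulum protein wolframin, averaged 43.8 ± 3.75 CPM in females and 40.5 ± 1.97 CPM in males, 0.11 ± 0.03 higher (0.0154). At 6 months the female over male values were -0.04 for Evc, 0.03 for Babam2 and 0.00 for Wfs1, with none called. Among the rest the dopamine receptor gene Drd5 was 0.64 higher and Ldb2, a cofactor of LIM-domain factors, 0.58 higher, and both calls were lost without Q50 female 2 (adjusted p = 0.0501 and 0.0533), where 4 members (2.76%) and 4.26% of all genes were called. Tmem214 was 0.08 lower in females, Krtcap3 0.24 lower and the noncoding Gm10062 0.33 lower. Of the 48 fits without 1 library, Tmem214 was called in 42, Krtcap3 in 17 and Gm10062 in 23, and of 9 other alternatives they were called in 6, 4 and 4. All 3 kept their sign throughout.

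Between ages, 49 members (33.8%) were called at 10 against 6 months, 21 higher and 28 lower, where 41.3% of all genes were called. Age went together with the numbering of the libraries, so the 2 cannot be told apart. Preb, a membrane protein that helps load transport vesicles at the endoplasmic reticulum, averaged 76.0 ± 3.95 CPM at 10 months and 81.5 ± 5.58 CPM at 6 months (SD, n = 48 each), a log2 fold change of -0.10 ± 0.02 (adjusted p = 2.35e-06). It shares its locus with Abhd1 on the opposite strand, and reads of the pair cannot be told apart. Htr5a, a serotonin receptor, averaged 8.11 ± 0.85 CPM at 10 months and 7.11 ± 0.99 CPM at 6 months, 0.19 ± 0.03 higher (1.08e-05). Cnpy1, a gene of fibroblast growth factor signalling in zebrafish, averaged 425.9 ± 49.0 CPM at 10 months and 486.8 ± 54.9 CPM at 6 months, -0.19 ± 0.03 (1.53e-05), and its neighbour En2, the homeobox gene of the midbrain and cerebellum, fell by 0.12 ± 0.03 (0.000217). Grk4 fell by 0.21 ± 0.04 (3.23e-05), and Slc5a1 did not pass (0.04 ± 0.04, adjusted p = 0.420). By list, 1 rose and 4 fell of 12 genes of DNA repair and cell division, and 3 fell of 5 in the immune and NAD glycohydrolase list. Of 18 developmental regulators 2 rose and 4 fell, of 18 neuronal signalling genes 2 rose and 1 fell, of 8 RNA processing genes 2 fell, and none of 6 cilia genes was called. Of 14 chromatin genes 3 rose and 3 fell, and the remaining lists are left out. Each list holds few members, and 41.3% of all genes were called, so these counts say nothing of the lists.

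Whether a difference between lines changed with age was tested for Q20 against WT20, Q50 against WT50, Q92 against Q20 and Q140 against Q20. None of the 145 members was called by edgeR in any of these 4 tests, where the share of all genes was 0%, 0%, 0.00575% and 0% in that order, and 5, 3, 24 and 3 members had an unadjusted p under 0.05, where the share of all genes was 3.97%, 1.75%, 14.8% and 5.16%. The interaction was not run with other tools. For Slc5a1 the change of Q20 against WT20 was 0.32 ± 0.13 lower at 10 than at 6 months (adjusted p = 1), so a difference between ages was not shown.

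The members also differed in how much they varied over all 96 libraries. Msx1, a homeobox transcription factor, had the largest SD of log2 CPM, 0.86, followed by Fosl2, an AP-1 factor, at 0.82, Drd5 at 0.64 and Fgfbp1 at 0.63. The most even were Letm1, a protein of the inner mitochondrial membrane, at 0.059 and Wdr1, which helps take actin filaments apart, at 0.062. Msx1 moved with choroid plexus markers, at a Spearman correlation of 0.89 at 10 months and 0.87 at 6 months over 48 libraries that share depth and normalization. The choroid plexus score was 0.68 in Q140 and 3.10 in Q20 at 6 months, and Msx1 was -1.23 ± 0.38 there (edgeR adjusted p = 0.120). Nsg1 and Ywhah moved with the Purkinje score, at 0.858 and 0.838 at 10 months, and in knock-in against wild type at 10 months each was at -0.05 and not called.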

How the data were processed

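RNA of 96 cerebellum samples was purified (Qiagen miRNeasy) and made into libraries by Illumina protocols, per the labels' protocols. The submitters' processing notes name CASAVA 1.8.2. Not given in the sources used here were the tools of alignment and quantification, strand use, and the build and annotation behind the counts. The authors deposited a table of expected counts per gene, estimated counts of which 81.6% were whole at a tolerance of 0. The FPKM table deposited by the authors holds values that they scaled by gene length and library depth. No column of an unknown sample was found. Of 39179 identifiers, 37693 were named through GENCODE M21 (GRCm38), the source of all coordinates, and 1486 were not.

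Estimated counts were rounded and tested in edgeR 4.0.16 (R 4.3.3) with the two-sided quasi-likelihood F-test, TMM scaling and edgeR's own low-count filter (count 10, total 15). Each age was fitted on its 48 libraries, with group (6 levels) and sex as terms and 41 residual degrees of freedom. The CAG slope held 32 knock-in libraries, and fits across ages held all 96. P-values were adjusted by Benjamini-Hochberg over all genes tested, and a gene was called at an adjusted p under 0.05. Every adjusted p is from this test unless another tool is named. Dividing a log2 fold change's size by the root of its F statistic gave the SE. CPM values were TMM-scaled, with 2 as the prior count on the log2 scale. The fit was tested on simulated data. Alternatives were DESeq2 1.42.0 and limma 3.58.1 on log2(FPKM + 0.1), on which scale fold changes of low genes are understated. Others were another scaling, no filter, covariates, replicate numbers as a block, single libraries left out, narrower windows and higher minimums. Tables and motif searches were made in Python 3.11.15.

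The genes named were those called within an age or in the slope, the 8 nearest Htt on either side, the member with the smallest p of each functional list in Q140 against Q20 at 10 months, the 5 with the highest mean FPKM, and the top 3 for sex and for age. Others were named after their values were seen: the members with low p at both ages, those of the stretch with Prom1, the most and least variable, and further members called for sex or age. The members, lists and tests were chosen with earlier results of these data known. The comparison of all knock-in with all wild type libraries and the Purkinje and oligodendrocyte covariates were added after values were seen.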

Additional observations from a re-analysis of the deposited data

Results flagged for a closer look

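For the 8 members that the results turn on (Slc5a1, Ppp1cb, Prom1, Cd38, Cc2d2a, Afap1, Slc2a9 and Rbks), each of 96 groups of 8 libraries was checked for a single library far from the rest by Dixon's criterion. Chance gives about 1 in 20 groups, and 11 were found. Slc5a1 was low in Q50 female 3 at 6 months (7.71 CPM, the others from 9.91 to 12.4), in Q50 female 2 at 10 months (6.82 CPM, the others from 8.84 to 11.1) and in WT20 female 1 at 6 months (8.56 CPM, the others from 10.6 to 12.5). Ppp1cb was low in Q50 female 3 at 6 months (224.8 CPM, the others from 279.9 to 309.1), the same library in which Slc5a1 was low. Prom1 was low in Q140 male 1 at 6 months (32.6 CPM, the others from 39.6 to 44.8). Cd38 was high in Q92 male 1 at 6 months (22.7 CPM, the others from 16.3 to 18.8).

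Cc2d2a was low in Q20 male 4 at 6 months (32.3 CPM, the others from 42.0 to 50.8), in Q92 female 2 at 10 months (34.2 CPM, the others from 43.8 to 51.2) and in WT20 male 4 at 6 months (29.4 CPM, the others from 40.7 to 50.5). In that WT20 library Rbks was high (2.51 CPM, the others from 1.10 to 1.55). Slc2a9 was low in WT20 female 1 at 6 months (2.37 CPM, the others from 3.58 to 4.78), which was also the low WT20 library of Slc5a1.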

How the results depend on the processing

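Over all 145 members and all comparisons, 72 values were called. In their 1326 refits (single libraries left out included) the call was kept in 996 and lost in 330, and the sign changed in 0. Values not called became called in 153 of 164119 refits. Slc5a1 in knock-in against wild type at 10 months was called under all 10 alternatives (adjusted p from 3.41e-09 to 0.0241) and in all 48 fits without 1 library. Counts of members called moved as follows, and the cause was not tested. In Q140 against wild types at 6 months the count of 2 became 0 with no filter, with library number (the L number in the library names), with the choroid plexus or oligodendrocyte score, without the far libraries on the component of 500 genes, at 2 Mb and at a mean of 5 CPM, 1 with the Purkinje score and 4 without the far libraries on all genes. The slope at 6 months, 1, became 3 with DESeq2 and 0 with no filter, limma, library number, each of the 3 scores, without either set of far libraries, and at 5 and 2 Mb. The slope at 10 months, 2, became 1 with no filter or limma, 0 with library number or the oligodendrocyte score, 0 at 5 and 2 Mb, and 6 without the far library. Q140 against Q20 at 10 months, 3, became 5 with DESeq2, the Purkinje or the oligodendrocyte score, 0 with library number, 8 without the far library, and 1 at 5 and 2 Mb. Knock-in against wild type at 10 months, 2, became 1 with no filter, library number, the Purkinje score or 2 Mb, and 4 without the far library. Q140 against wild types at 10 months, 1, became 0 with library number, and 3 with the oligodendrocyte score or without the far library. Females against males at 10 months, 12, became 5 with no filter, 4 with library number or the choroid plexus score, 2 at 2 Mb and 7 at 5 CPM.

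Counts of 0 became 1 in these cases. At 6 months they were Q50 against WT50 and Q92 against wild types (Purkinje score), Q140 against Q20 (DESeq2), knock-in against wild type (Purkinje or oligodendrocyte score) and females against males (library number, or without far libraries). At 10 months they were Q20 against WT20 (DESeq2, limma, choroid plexus or Purkinje score, and 2 without the far library), Q50 against WT50 (DESeq2, or without the far library), Q92 against Q20 (DESeq2, Purkinje or oligodendrocyte score), Q92 against wild types (Purkinje score) and WT50 against WT20 (Purkinje or oligodendrocyte score, or without the far library).

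With single libraries left out the counts ran from 1 to 8 in Q140 against Q20 at 10 months (1 without Q20 male 3) and 0 to 3 at 6 months (3 without Q140 female 4), and from 0 to 3 in Q140 against wild types at 10 months and 0 to 4 at 6 months. They ran from 1 to 4 in knock-in against wild type at 10 months (1 without each of the 7 wild types named for Ppp1cb), 1 to 6 for the slope at 10 months and 0 to 29 at 6 months. For females against males they ran from 4 to 16 at 10 months and 0 to 1 at 6 months. They ran from 0 to 2 in Q20 against WT20, 0 to 1 in Q50 against WT50 and 0 to 1 in WT50 against WT20 at 10 months, and the remaining comparisons stayed at 0.

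With the replicate block the count was 1 in Q140 against wild types at 6 months, 0 for the slope at 6 months and 1 for the slope at 10 months, and no other count of a comparison between lines moved. In Q20 against WT20 at 6 months same-numbered libraries tended to deviate together. Their median correlation of deviations was 0.30, against -0.06 for other numbers, with 6 of 8 pairs over 0.1 and a highest value of 0.88. In the other comparisons checked the median ran from -0.09 to 0.02, with 2 or 3 of 8 pairs over 0.1, and the numbers did not pair the libraries. The block could not be fitted for females against males. At 10 months no library was far out on the component of 500 genes. DESeq2 left 130 members without an adjusted p in Q20 against WT20 at 10 months. Age and its interactions were run again only with another scaling. Depth limits low genes such as Rbks, at about 1 CPM.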
